A study of Mus musculus with 2 samples.

Results

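Solute carriers are the membrane proteins that move nutrients, ions, metals and metabolites down or against their gradients. Their genes carry a number for the family, which usually stands for a substrate group, and a letter and number for the member. Carriers of the cell surface set what a fibroblast takes up, those of the mitochondrial inner membrane supply the respiratory chain, and those of the Golgi and lysosome supply glycosylation and recycle nutrients. Tendon fibroblasts, called tenocytes, depend on such carriers for the amino acids, sugars and sulfate that go into collagen and proteoglycans.

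The genes described here were all those whose single symbol in the platform annotation had the form of a solute carrier name, apart from Slc7a11, Slc2a1 and Slc40a1, which were left out by definition. There were 168 such genes of 10843 named genes, in 47 families. The rule uses no measured value, but it was set with earlier results of these data known. On the 6 h array 157 of the 168 had a value, on the 12 h array 165, and on both arrays 156. Slc5a11 and Slc27a3 were listed but had no value on either array. Of the 168 symbols, 3 name genes that are not carriers: Slc7a6os, which lies opposite Slc7a6, and the scaffold proteins Slc9a3r1 and Slc9a3r2.

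The values come from mouse tendon cells, the kind called tenocytes, hybridised on 2 spotted two-colour arrays. The 6 h array set pooled sheared cells, labelled with Cy5, against pooled control cells, labelled with Cy3. The 12 h array set cells sheared at 50 rpm and taken at 12 h, in Cy5, against control tenocytes of the same time, in Cy3. The labels give no rate for the 6 h shear, and no mouse strain, age or passage. There was 1 array per time point and the dyes were not swapped, so no difference between sheared and control cells could be tested, and a dye effect cannot be told apart from an effect of shear. "Higher" and "lower" describe these arrays only. The arrays hold ratios without intensities, so whether a carrier was expressed above background, and whether tenocyte markers were present, could not be read.

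Every value is a log2 ratio of sheared over control after the array median was subtracted, and a gene's value is the median of its probes. No source gives the base of the logarithm, which was taken as 2. Nor is the direction stated: sheared over control follows from Cy5 over Cy3, the usual order for such ratios, and is therefore likely; the opposite order would turn every sign. The only error within an array is the standard deviation (SD) between probes of one gene, which was 0.728 at 6 h over 64 carrier genes with several probes and 0.720 at 12 h over 66. All genes had 0.738 and 0.855. Centring removed a median of -0.323 from the 6 h array and of -0.479 from the 12 h array, and uncentred values lie lower by those amounts.

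As a group, the solute carriers read slightly lower in the sheared cells and lay close to the array as a whole. Their median was -0.20 at 6 h, with quartiles of -0.94 and 0.40, against -0.11 for all genes. At 12 h it was -0.27, with quartiles of -0.72 and 0.42, against -0.14 for all genes. At 6 h, 7 of the 157 carriers passed 2-fold on the high side and 36 on the low side, or 4.46% and 22.9%, where 6.2% and 18.8% of all genes passed the same folds. At 12 h, 17 of 165 passed it on the high side and 31 on the low side, or 10.3% and 18.8%, where 14.5% and 20.5% of all genes did. Without centring the split was 4 higher and 52 lower at 6 h, and 4 higher and 57 lower at 12 h. Every gene on an array lies lower by the same amount in that setting. The shares of all genes were not counted there, so this split shows nothing particular to carriers. Carriers with 1 probe had medians of -0.25 and -0.31 at 6 h and 12 h, and carriers with several probes -0.02 and -0.06; all genes showed the same order, with -0.32 and -0.31 on 1 probe and 0.05 and 0.03 on several.

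By substrate, among classes of at least 4 measured genes, monocarboxylate carriers had the highest median at 6 h, 0.63 over 5 genes, although the 2 of them with several probes had a median of -1.005. Amino acid carriers had the lowest, -0.67 over 22 genes. At 12 h the highest median was again that of the monocarboxylate carriers, 0.42, which turned to -0.06 without centring and to -0.45 over the 2 genes with several probes. The lowest at 12 h was -0.71, for 10 carriers of vitamins and choline. Of the mitochondrial Slc25 carriers, 15.4% were at least 2-fold higher at 6 h and 22.2% at 12 h, against 2.29% and 7.97% of the carriers outside Slc25 and 6.2% and 14.5% of all genes. The difference was not tested.

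**Figure D1:**
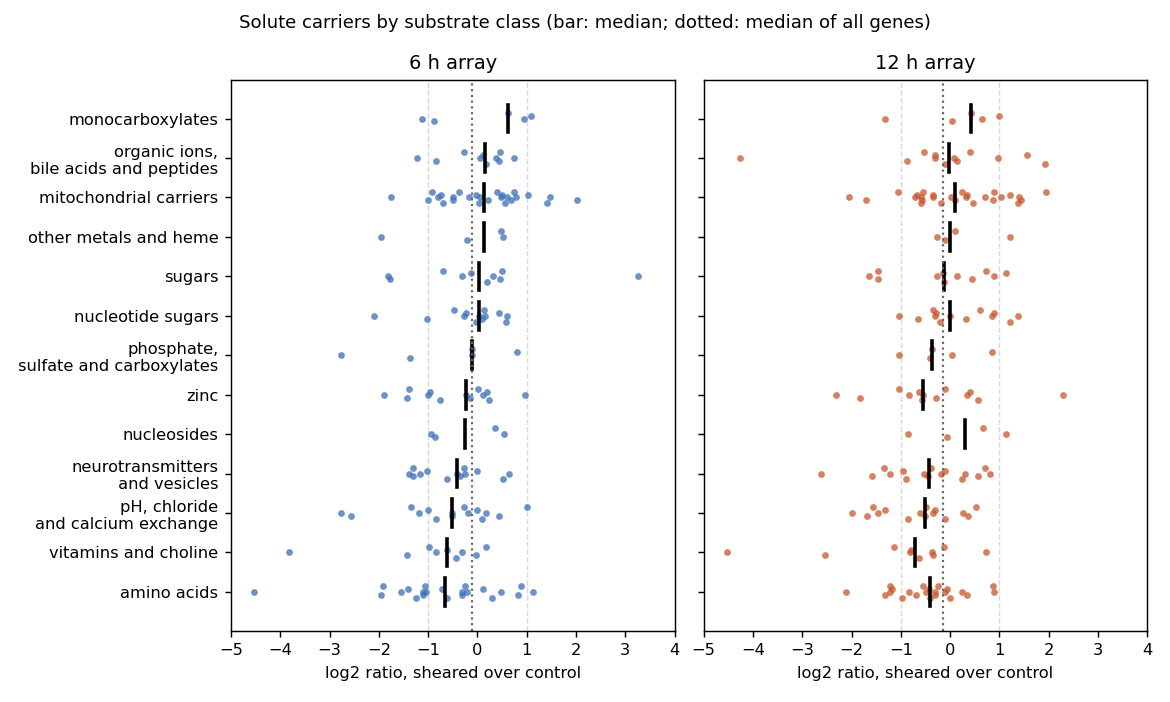
Log2 ratios of sheared over control for solute carriers by substrate class, at 6 h (left) and 12 h (right), for classes with at least 3 genes measured at 6 h. Each point is a gene, the black bar is the class median, the dotted line is the median of all genes and the dashed lines mark 2-fold; the amino acid class lies lowest at 6 h, with a median of -0.67, and most classes straddle 0 on both arrays.

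The Slc25 carriers of the mitochondrial inner membrane held the highest values among the carriers with several probes. The ADP/ATP translocase Slc25a5, which exchanges cytosolic ADP for mitochondrial ATP, had probes at 1.65 and 1.30 at 6 h and at 2.19 and 1.68 at 12 h. These gave 1.48 (probe SD 0.24, 2 probes) and 1.94 (probe SD 0.36), or 2.78-fold and 3.83-fold higher. The phosphate carrier Slc25a3, which brings in the phosphate for ATP synthesis, had probes at 0.97 and 1.08 at 6 h and at 1.67 and 1.21 at 12 h. It stood at 1.03 (probe SD 0.08) and 1.44 (probe SD 0.33), or 2.04-fold and 2.71-fold higher. Both of these genes had every probe above 0 on both arrays, and they were the 2 carriers at least 2-fold higher on both, of 156, while 4.34% of all genes were. The second ADP/ATP translocase, Slc25a4, stood at 0.60 (probe SD 0.56, 8 probes) at 6 h and 1.21 (probe SD 0.81, 9 probes) at 12 h. At 6 h 7 of its 8 probes lay between 0.41 and 1.16 and the other at -0.77. At 12 h 7 of 9 lay between 0.90 and 1.32, with the other two at -1.004 and -0.10. Slc25a4 and Slc25a5 are close homologues and their cDNA probes can share signal.

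The opposite end of the family was held by Slc25a13, the exchanger of mitochondrial aspartate for cytosolic glutamate that feeds the malate-aspartate shuttle. Its probes read -1.49 and -2.02 at 6 h, and -1.81, -3.20 and -2.06 at 12 h. It stood at -1.75 (probe SD 0.37, 2 probes) and -2.06 (probe SD 0.74, 3 probes), or 3.37-fold and 4.17-fold lower, with every probe below 0.

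The DNA just upstream of these genes is shown for the 3 carriers of ADP, ATP and phosphate, which read high together, for Slc25a13 and for the amino acid carrier Slc38a2 described below, which read low. The genes were chosen after their values were seen. Each stretch ends at the base before the gene's outermost annotated start and runs 5′ to 3′ on the gene's strand, from RefSeq's GRCm38.p6 annotation: chrX:36795347-36795596 (+), chr8:46211063-46211312 (-), chr10:91124047-91124217 (-), chr6:6217305-6217423 (-) and chr15:96699729-96699978 (-), in the order printed. Capitals mark matches on either strand to the GC box GGGCGG, the CCAAT box CCAAT, the nuclear respiratory factor 1 motif, read as GCGCA and GCGC with any 1 base between them, and the antioxidant response motif TGACNNNGC, and no 2 of these matches overlap here.
Slc25a5: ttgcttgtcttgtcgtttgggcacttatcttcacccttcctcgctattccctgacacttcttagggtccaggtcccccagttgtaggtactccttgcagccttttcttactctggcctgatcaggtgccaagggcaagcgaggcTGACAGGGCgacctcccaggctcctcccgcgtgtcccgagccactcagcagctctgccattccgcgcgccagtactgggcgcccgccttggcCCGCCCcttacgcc
Slc25a4: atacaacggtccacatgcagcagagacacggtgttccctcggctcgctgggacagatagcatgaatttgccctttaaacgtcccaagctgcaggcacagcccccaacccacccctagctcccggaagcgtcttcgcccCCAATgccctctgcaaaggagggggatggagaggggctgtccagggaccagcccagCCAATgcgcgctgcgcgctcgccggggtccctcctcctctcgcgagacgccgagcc
Slc25a3: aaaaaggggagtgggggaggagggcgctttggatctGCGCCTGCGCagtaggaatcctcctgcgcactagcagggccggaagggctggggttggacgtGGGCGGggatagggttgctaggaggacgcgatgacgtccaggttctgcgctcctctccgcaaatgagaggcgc
Slc25a13: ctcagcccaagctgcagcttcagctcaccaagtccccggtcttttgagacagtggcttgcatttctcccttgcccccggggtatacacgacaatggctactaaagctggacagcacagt
Slc38a2: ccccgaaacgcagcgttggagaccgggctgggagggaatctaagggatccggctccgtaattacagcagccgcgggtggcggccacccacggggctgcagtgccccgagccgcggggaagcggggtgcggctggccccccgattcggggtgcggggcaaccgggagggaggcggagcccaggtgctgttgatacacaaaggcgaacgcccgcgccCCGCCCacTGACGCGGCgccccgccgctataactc

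The stretch of Slc25a3 held 1 match to the nuclear respiratory factor 1 motif and 1 GC box, that of Slc25a5 1 GC box and 1 antioxidant response motif, and that of Slc25a4 2 CCAAT boxes. The stretch of Slc25a13, of 119 bases, held none of the 4, and that of Slc38a2 held 1 GC box and 1 antioxidant response motif. The stretches of Slc25a3 and Slc25a13, of 171 and 119 bases, are shorter than the 250 bases of the others, since they stop before an earlier annotated start. The full windows of 300 bases, which run past the start, held a CCAAT box for Slc25a13, a GC box for Slc25a4 and an antioxidant response motif for Slc25a3 besides. Over such windows, which 127 of the 168 genes had, 78.0% of carriers held a GC box. Of all 27025 genes with a window 38.2% did, counting a gene once where it had several windows. Those 27025 genes were not limited to the genes of the arrays, so the carriers are set beside another kind of gene set here. Among the 21 Slc25 genes with a window, 19 held a GC box, 11 a CCAAT box, 4 the antioxidant response motif and 1 the nuclear respiratory factor 1 motif. Of all 27025 genes with a window 41.1%, 14% and 5.19% held the last 3 motifs. A match is a string of letters and not a site of binding.

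The Slc25 family as a whole, these genes included, spread over both signs. Over its 26 genes at 6 h the median was 0.13, and 4 were past 2-fold on the high side and 1 on the low side, or 15.4% and 3.85%, where all genes had 6.2% and 18.8%. Over 27 genes at 12 h it was 0.10, and 6 were past 2-fold on the high side and 3 on the low side, or 22.2% and 11.1%, where all genes had 14.5% and 20.5%. Both medians turned negative without centring, at -0.19 and -0.38. Over the 12 genes with several probes they were 0.44 and 0.79, and over those with 1 probe 0.00 at 6 h and 0.02 at 12 h. Among carriers of the tricarboxylic acid cycle's substrates, the citrate carrier Slc25a1 stood at -0.04 and 1.39 on 1 probe, and the oxoglutarate and malate carrier Slc25a11 at 0.21 (probe SD 0.21, 6 probes) and 0.71 (probe SD 0.27, 6 probes), with every probe above 0. The carnitine and acylcarnitine carrier Slc25a20, which admits fatty acids for oxidation, stood at 0.48 (probe SD 0.51) and 0.89 (probe SD 0.17) on 2 probes.

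Carriers of heme, iron and glutathione were mixed. Slc25a39, which imports glutathione, stood at 0.50 (probe SD 0.43) and 1.39 (probe SD 0.53), with all 5 probes above 0 on both arrays. Slc25a38, which brings in glycine for heme synthesis, stood at 0.75 and 1.02 on 1 probe. The mitochondrial iron importers were Slc25a37 at 0.40 (probe SD 0.65) and -0.17 (probe SD 0.87) on 2 probes, and Slc25a28 at -0.17 and -0.57 on 1.

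Carriers of cofactors and nucleotides differed from gene to gene. On 1 probe each, the coenzyme A carrier Slc25a42 stood at 2.03 at 6 h and 0.33 at 12 h, and the folate carrier Slc25a32 at 1.40 and 0.34. Slc25a17, the carrier of the peroxisomal membrane, stood at 0.78 (probe SD 0.01, 2 probes) and 0.87 (probe SD 1.01, 3 probes). The pyrimidine nucleotide carriers lay on opposite sides, with Slc25a33 at 0.05 and 0.47 on 1 probe and Slc25a36 at -0.93 (probe SD 0.52) and -1.07 (probe SD 0.16) on 2. The NAD carrier Slc25a51 stood at -0.51 (probe SD 1.48) and -0.35 (probe SD 0.90) on 4 probes, and the S-adenosylmethionine carrier Slc25a26 at -0.50 and -0.59 on 1.

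The mitochondrial carriers of other amino acids lay on both sides of 0. The glutamate carriers were Slc25a22 at 0.56 and 0.24, and Slc25a18, measured at 12 h only, at -1.70. The ornithine carrier Slc25a15 stood at -0.70 and -0.58, and the branched-chain amino acid carrier Slc25a44 at 0.69 and 0.10, each on 1 probe. Slc25a46, a protein of the outer membrane with a role in mitochondrial shape, stood at -0.80 (probe SD 0.51) and -0.56 (probe SD 0.39) on 5 probes. The others, on 1 probe each, were the ATP-Mg and phosphate carrier Slc25a24 at 0.03 and -0.67, Slc25a30 at -0.37 and -0.35, Slc25a45 at -0.74 and 0.02, and Slc25a48 at -0.997 and -0.72.

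**Figure D2:**
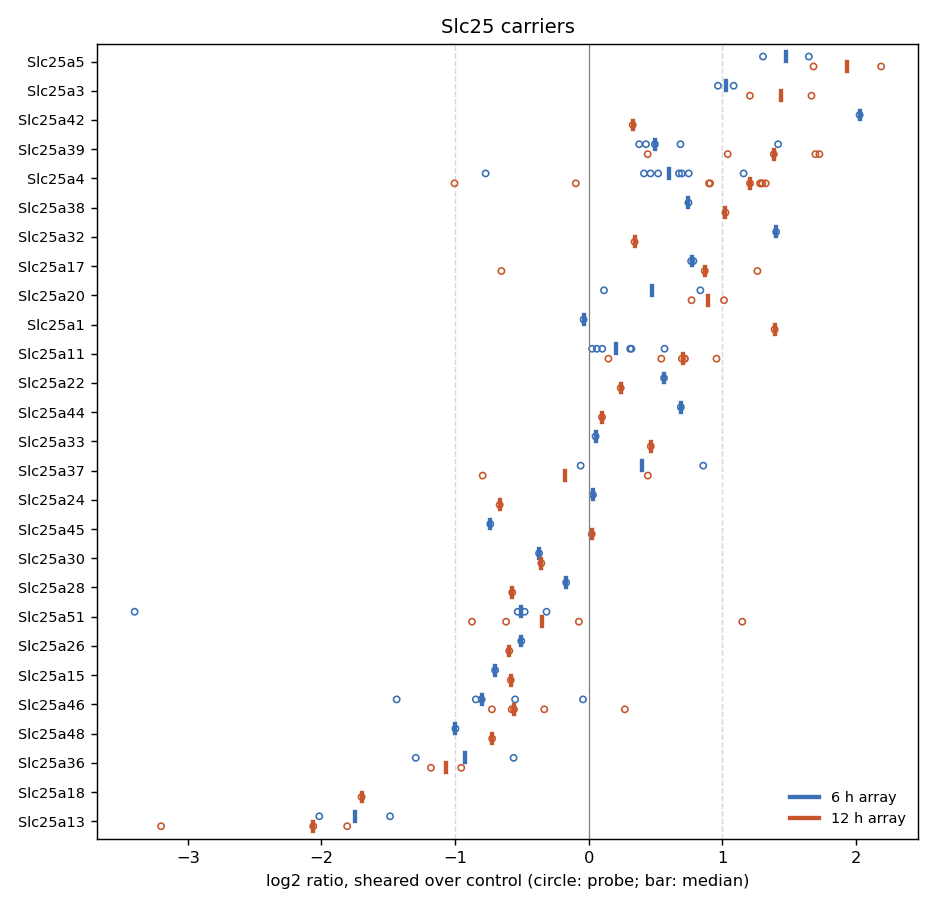
Log2 ratios of sheared over control for the Slc25 carriers, ordered by the mean of both arrays. Circles are single probes and bars the gene medians, blue for 6 h and orange for 12 h, and dashed lines mark 2-fold; Slc25a5 and Slc25a3 have every probe above 0.9 and Slc25a13 has every probe below -1.4.

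Amino acid carriers of the cell surface and lysosome leaned low at 6 h. Of the 22 genes of Slc1, Slc3, Slc7, Slc36, Slc38 and Slc43, 10 were past 2-fold on the low side and 1 on the high side. These were 45.5% and 4.55%, where all genes had 18.8% and 6.2%, and the median was -0.67. At 12 h none was higher and 5 were lower, or 0% and 22.7%, where all genes had 14.5% and 20.5%, and the median was -0.41. The Slc38 family, which imports glutamine, alanine and other small neutral amino acids, held 5 of the 10 at 6 h. Its median was -1.11 over 7 genes at 6 h, with 6 of them below 0, and -0.40 at 12 h, with all 7 below 0, Slc38a1 by less than 0.01. Both medians stayed negative under every setting tried.

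Slc38a2, the sodium-coupled carrier of system A that cells use to take up small neutral amino acids during growth and after osmotic shrinkage, had the lowest mean of both arrays among the amino acid carriers with several probes. Its probes read -1.35 and -1.15 at 6 h and -2.001 and -2.22 at 12 h. It stood at -1.25 (probe SD 0.14) and -2.11 (probe SD 0.16), or 2.38-fold and 4.32-fold lower. The other sodium-coupled members spread more. Slc38a5 stood at -1.92 (probe SD 1.69, 2 probes) and -0.25 (probe SD 1.27, 3 probes), Slc38a3 at -1.42 (probe SD 1.36) and -0.40 (probe SD 0.21), and Slc38a4 at -1.10 (probe SD 0.75) and -0.50 (probe SD 0.64) on 4 probes. Slc38a1 had probes of opposite sign, 0.96 and -0.75 at 6 h and 1.69 and -1.70 at 12 h, so its medians of 0.11 and -0.00 describe neither. The lysosomal amino acid sensor Slc38a9 stood at -1.11 and -0.42 on 1 probe, and Slc38a10 at -0.61 (probe SD 0.24) and -0.31 (probe SD 0.06).

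The Slc7 light chains and their partner differed among themselves. Slc3a2, the heavy chain that carries several Slc7 proteins to the cell surface, stood at 0.81 (probe SD 1.10) and 0.89 (probe SD 1.02), and 3 of its 4 probes lay above 0.7 at 6 h while the other lay at -0.58. The light chain Slc7a7 stood at 1.13 and 0.35 on 1 probe, and its relative Slc7a6 at -0.26 (probe SD 0.30) and 0.24 (probe SD 0.41). Slc7a8, a light chain for neutral amino acids, stood at -1.04 and -1.21 on 1 probe. Slc7a10, a carrier of small neutral amino acids known from brain and fat, had the lowest value of all carriers at 6 h, -4.53, and stood at -1.19 at 12 h, on 1 probe. Among the cationic carriers, which do not need the heavy chain, the arginine carrier Slc7a2 stood at -1.97 and -1.22 on 1 probe, Slc7a3 at 0.48 (probe SD 1.35) and -0.54 (probe SD 0.60), and Slc7a4 at -0.32 and -0.31. The Slc7 median was -0.32 at 6 h and -0.54 at 12 h over 7 genes, and at 6 h it was 0.11 over the 2 genes with several probes. Slc7a6os, which is no carrier, stood at 0.44 (probe SD 1.49) and 1.22 (probe SD 1.11).

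In Slc1 the glutamate carriers lay below 0 and the neutral carriers on both sides of it. The glutamate carriers Slc1a2 and Slc1a3 stood at -1.05 and -0.98 on 1 probe, and at -0.72 (probe SD 0.32) and -1.32 (probe SD 0.96) on 3 probes. The neutral carriers Slc1a4 and Slc1a5 stood at 0.89 and -0.06 on 1 probe, and at 0.30 (probe SD 0.91, 3 probes) and 0.87 (probe SD 0.74, 4 probes). Probes of a gene differed in sign: a probe of Slc1a3 read 0.29 at 12 h, and a probe of Slc1a5 read -1.19 and -0.12. Slc43a2, a carrier of branched-chain amino acids, stood at -0.31 (probe SD 0.17) and -0.69 (probe SD 0.03), the proline and glycine carrier Slc36a2 at -0.20 and -0.84, and Slc43a3, a nucleobase carrier despite its family, at -1.56 and -0.10.

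Several of these genes are known targets of the stress-induced transcription factor Atf4, which itself stood at 1.36 (probe SD 0.12, 3 probes) and 1.44 (probe SD 0.12, 2 probes). Of 9 such carriers listed, Slc7a1, Slc7a5 and Slc43a1 had no value in the genes used, and Slc7a11, left out by definition, was not listed. The list was made with earlier results of these data known. The 6 measured carriers had a median of 0.39 at 6 h and -0.30 at 12 h. None was past 2-fold on the high side on either array, where 6.2% and 14.5% of all genes were. On the low side there was 1 of 6 at 6 h and 2 of 6 at 12 h, where 18.8% and 20.5% of all genes were: Slc38a2 on both, and the glycine carrier Slc6a9, at -0.35 and -1.59 on 1 probe, at 12 h. Among the kinase complex that senses amino acids, Mtor stood at -1.05 (probe SD 0.40) and -1.73 (probe SD 1.45), and Rptor at -1.43 and -1.74 on 1 probe. The small GTPase Rragc stood at 0.15 (probe SD 0.20) and 0.11 (probe SD 0.09). Its relative Rragd lay the other way, at -0.35 (probe SD 0.08) and -0.68 (probe SD 0.28). The C/EBP-ATF response motif TGATGNAA, read on both strands, lay in the windows of 5 of 127 carriers, or 3.94%. Among them were Slc1a4 and Slc7a7 of the amino acid class. Of all 27025 genes with a window 4.51% held it.

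**Figure D3:**
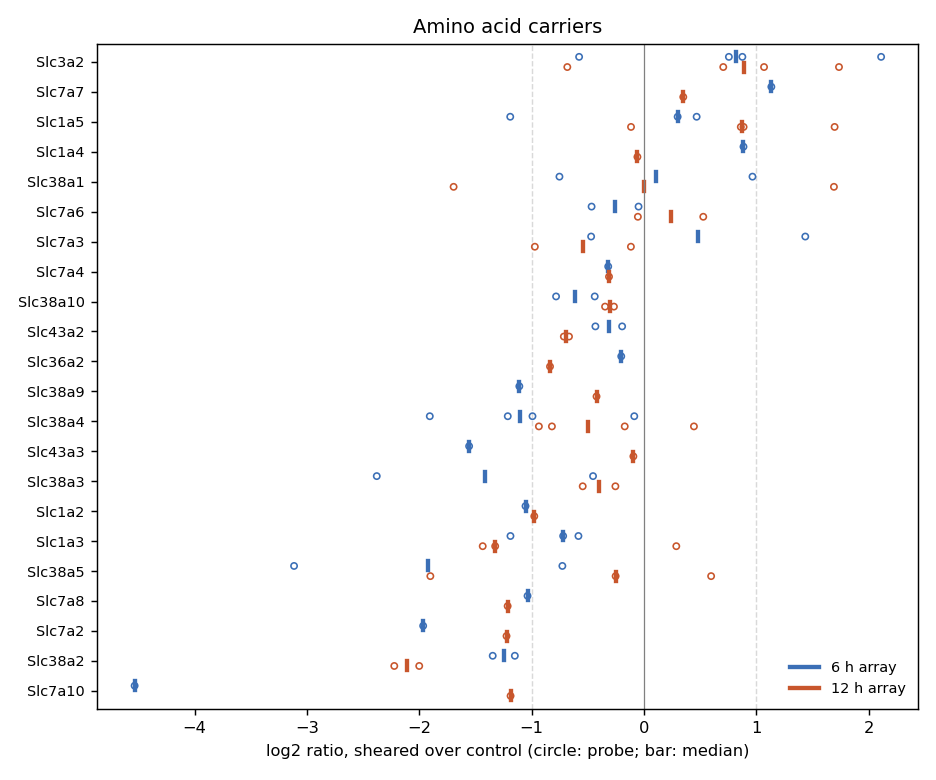
Log2 ratios of sheared over control for the amino acid carriers of Slc1, Slc3, Slc7, Slc36, Slc38 and Slc43, ordered by the mean of both arrays. Circles are single probes and bars the gene medians, blue for 6 h and orange for 12 h; both probes of Slc38a2 lie below -1.1 on both arrays, and the probes of Slc38a1 fall on both sides of 0.

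Zinc carriers work in opposite directions: Slc30 proteins move zinc out of the cytosol, into vesicles or out of the cell, and Slc39 proteins move it in. In these data the importers covered a wider range than the exporters. The 13 zinc carriers had medians of -0.23 at 6 h and -0.55 at 12 h. None was past 2-fold on the high side at 6 h and 4 on the low side, or 0% and 30.8%, where all genes had 6.2% and 18.8%. At 12 h there was 1 on the high side and 3 on the low side, or 7.69% and 23.1%, where all genes had 14.5% and 20.5%. The 7 Slc39 genes had medians of -0.76 and -0.55, and the 6 Slc30 genes -0.11 and -0.43. The Slc30 medians turned to 0.06 and 0.03 over the 4 genes with several probes.

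Among the importers, Slc39a10, a carrier of the cell surface, had probes at -1.01 and -1.76 at 6 h and at -0.94 and -1.11 at 12 h. It stood at -1.38 (probe SD 0.53) and -1.03 (probe SD 0.12), with both probes below 0 on both arrays. Slc39a8, which also carries manganese and cadmium, stood at -1.0 (probe SD 1.02) and -0.83 (probe SD 0.77), and Slc39a14, of similar substrates, at -0.15 and -0.55 on 1 probe. Slc39a5 stood at -1.43 and -2.31 and Slc39a4, the importer of intestinal zinc, at -0.76 and -0.11. Slc39a11 read highest, at 0.97 at 6 h and 2.29 at 12 h on 1 probe. Its 12 h value was 4.90-fold higher and the highest value of any carrier on that array. Slc39a13, whose loss disturbs connective tissue in mice and people, stood at 0.24 and 0.56 on 1 probe.

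Among the exporters, those of the early secretory pathway lay close to 0. Slc30a5 stood at 0.12 (probe SD 0.02) and -0.28 (probe SD 0.45), and Slc30a7 at 0.20 (probe SD 0.00) and 0.34 (probe SD 0.07), on 2 probes each. Slc30a9 stood at 0.01 (probe SD 0.01) and 0.41 (probe SD 0.95), and Slc30a4 at -0.23 (probe SD 0.28) and -0.58 (probe SD 0.38) with all 4 probes below 0. Slc30a2, a vesicular exporter known from mammary gland, stood at -1.90 and -1.82, and Slc30a3, the carrier of synaptic vesicles, at -0.97 and -0.62, each on 1 probe. The core letters of the metal response motif were searched on both strands as TGCACNC and TGCGCNC in the windows of 11 zinc carriers. Each form was found in 5 of the 11, or 45.5%, with Slc30a4 and Slc39a11 holding both. Of the 127 carriers with a window 20.5% and 27.6% held them, and of all 27025 genes with a window 14.2% and 17%. Some zinc carriers, Slc39a11 among them, had several windows, and a match in any of them was counted. The differences were not tested.

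**Figure D4:**
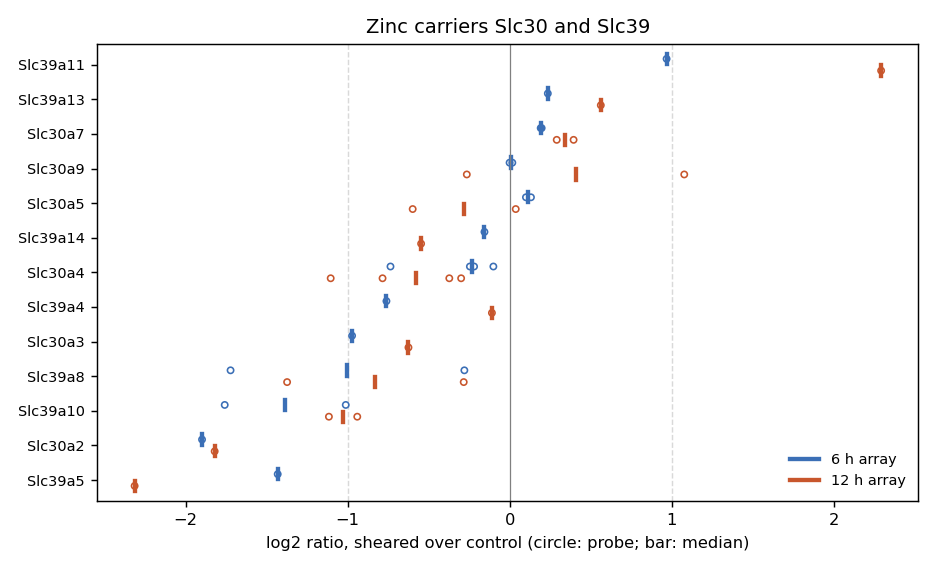
Log2 ratios of sheared over control for the zinc carriers of Slc30 and Slc39, ordered by the mean of both arrays. Circles are single probes and bars the gene medians, blue for 6 h and orange for 12 h, and dashed lines mark 2-fold; Slc39a11 stands alone past 2-fold on the high side at 12 h, at 2.29, and Slc39a5 is lowest there, at -2.31.

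Slc6a6 and Slc12a2 are carriers by which a cell takes up osmolytes and salt, and both lay below 0 on every probe. Slc6a6, the sodium-coupled taurine carrier, had probes at -1.27 and -1.49 at 6 h and at -2.41 and -2.81 at 12 h. It stood at -1.38 (probe SD 0.15) and -2.61 (probe SD 0.28), or 2.61-fold and 6.11-fold lower, and at 12 h it was the lowest of all carriers with several probes. Slc12a2, the sodium-potassium-chloride cotransporter that raises cell volume and chloride, had 6 probes. They read -1.22, -0.68, -1.25, -0.08, -0.78 and -1.48 at 6 h, and -1.18, -1.56, -1.96, -1.28, -1.43 and -1.49 at 12 h. All 12 readings lay below 0, and the gene stood at -1.001 (probe SD 0.51) and -1.46 (probe SD 0.27). Slc6a6 and Slc12a2 are placed side by side after their values were seen. Other carriers of osmolytes lay on both sides of 0. The inositol carrier Slc2a13 stood at 3.25 and 0.89 on 1 probe. Below 0 on both arrays lay the betaine carrier Slc6a12, at -0.27 and -0.53, and Slc38a2, at -1.25 and -2.11.

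The kinases that switch the Slc12 cotransporters also read low. Wnk1, which senses chloride, stood at -1.37 (probe SD 0.27) and -2.10 (probe SD 0.62) on 3 probes. Its targets Oxsr1 and Stk39, which phosphorylate the cotransporters, stood at -0.61 (probe SD 0.14) and -2.36 (probe SD 0.55), and at -1.16 and -0.95 on 1 probe. The potassium-chloride cotransporters, which release salt and shrink the cell, differed: Slc12a4 stood at -0.28 and -0.11 on 1 probe, and Slc12a7 at 0.998 on 1 probe at 6 h, just under 2-fold, and at -1.56 (probe SD 0.84, 2 probes) at 12 h. The betaine carrier Slc6a12, named after its values were seen, stood at -0.27 and -0.53 on 1 probe.

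Exchangers of protons, bicarbonate, chloride and calcium had more genes below 0 than above, 11 of 15 at 6 h and 12 of 15 at 12 h. All genes leaned the same way, with 5720 of 10346 below 0 at 6 h and 5971 of 10731 at 12 h. The class of Slc4, Slc8, Slc9, Slc12 and Slc26 had medians of -0.51 at 6 h and -0.51 at 12 h over 15 genes on each array. None was past 2-fold on the high side on either array, where 6.2% and 14.5% of all genes were. On the low side there were 5 on each array, or 33.3%, where all genes had 18.8% and 20.5%. With 1 probe there were 12 genes at 6 h and 11 at 12 h. Their medians were -0.39 and -0.50, where all genes on 1 probe had -0.32 and -0.31. The 3 and 4 genes with several probes had medians of -1.001 and -1.15, where all genes with several probes had 0.05 and 0.03. The sodium-proton exchanger Slc9a2 stood at -2.77 and -1.33 and the related Slc9b1 at -2.56 and -0.31, while Slc9a3 stood at 0.44 and 0.35, each on 1 probe. The sodium-calcium exchanger Slc8a1, named after its values were seen, stood at -1.19 and -1.70 on 1 probe. Among the bicarbonate carriers, Slc4a2 stood at 0.08 (probe SD 0.48) and 0.27 (probe SD 0.44) on 4 probes, the erythroid band 3 gene Slc4a1 at -0.51 and -0.50, and Slc4a9, measured at 12 h only, at -2.0. Slc9a3r2, the scaffold that tethers Slc9a3, stood at 0.80 and 1.35 on 1 probe.

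Among the carriers of lactate and other monocarboxylates, Slc16a1 and Slc16a3 read above the array median on both arrays, and other members differed. Slc16a1 stood at 1.08 and 0.64 and Slc16a3, which glycolytic cells use to release lactate and which is named after its values were seen, at 0.63 and 0.997, each on 1 probe. Bsg, the chaperone that brings both to the surface, stood at 0.74 (probe SD 0.38) and 1.85 (probe SD 0.42) on 6 probes, and Emb, which serves related carriers, at 0.01 (probe SD 0.13) and 0.32 (probe SD 0.30) on 4. Among the other members, Slc16a13 stood at -1.13 (probe SD 0.20) and -1.32 (probe SD 0.31), with both probes below 0 on both arrays. Slc16a11 stood at -0.88 (probe SD 1.34) and 0.42 (probe SD 0.33) on 2 probes. The carnitine carrier Slc16a9 stood at 0.95 and 0.04 on 1 probe.

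Sugar carriers spread widely on both sides of 0. The class median was 0.03 over 10 genes at 6 h and -0.12 over 11 at 12 h, and both changed sign under several settings. Slc2a13, the proton-coupled inositol carrier, read 3.25 at 6 h, 9.52-fold higher and the highest value of any carrier on either array, and 0.89 at 12 h, on 1 probe. The intracellular glucose carrier Slc2a8 stood at -0.13 (probe SD 0.07) and -0.12 (probe SD 0.02). Slc45a3 stood at -0.71 (probe SD 1.06) and -1.64 (probe SD 0.30), and its relative Slc45a4 at -1.77 and -1.46 on 1 probe. Among the Slc5 genes, the intestinal glucose carrier Slc5a1, measured at 12 h only, stood at -1.47 (probe SD 2.21), and Slc5a6, a vitamin carrier despite its family, at 0.32 (probe SD 1.17) and 1.13 (probe SD 2.10), each on 2 probes that disagreed in sign. Both were named after their values were seen.

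Nucleotide sugar carriers of the endoplasmic reticulum and Golgi supply glycosylation and the sulfation of proteoglycans. Of the 13 Slc35 genes, none was past 2-fold on the high side and 2 on the low side at 6 h, or 0% and 15.4%, where all genes had 6.2% and 18.8%. At 12 h there were 2 on the high side and 1 on the low side, or 15.4% and 7.69%, where all genes had 14.5% and 20.5%. The medians of 0.03 and -0.01 carried no stable sign. Slc35b1, an ATP and ADP exchanger of the endoplasmic reticulum, stood at 0.59 (probe SD 0.24, 6 probes) and 1.39 (probe SD 0.63, 7 probes). At 6 h its 6 probes lay between 0.43 and 1.07. At 12 h 6 of its 7 probes lay between 1.14 and 1.99, and the one not measured at 6 h read -0.01. Slc35a4 stood at 0.60 (probe SD 0.02) and 1.21 (probe SD 0.40) on 2 probes. Slc35b2, which brings in the sulfate donor and was chosen with its values known, stood at 0.44 (probe SD 0.70) and 0.89 (probe SD 0.61) on 4. Slc35a3, the UDP-N-acetylglucosamine carrier, stood at -2.11 and -1.03 on 1 probe.

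Carriers of metals other than zinc and of heme were few. Slc48a1, which moves heme out of the lysosome, had probes at 0.48 and 0.56 at 6 h and at 1.195 and 1.22 at 12 h. It stood at 0.52 (probe SD 0.06) and 1.21 (probe SD 0.02), or 2.31-fold higher at 12 h. The iron importer Slc11a2 stood at -1.96 and -0.11 on 1 probe, and the first of these turned to 0.082 when probes that also name another gene were kept. The copper importer Slc31a1, named after its values were seen, stood at 0.48 and 0.10.

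Vitamin, choline, nucleoside and organic ion carriers held several extreme single-probe values. Slc46a3, a lysosomal carrier, read -3.83 and -4.52, or 14.2-fold and 23.0-fold lower, the lowest value of any carrier at 12 h. The thiamine carrier Slc19a3 stood at -0.99 and -2.54, and the kidney urate carrier Slc22a12, measured at 12 h only, at -4.27. On several probes, the riboflavin carrier Slc52a3 stood at -1.43 (probe SD 1.79) and -0.36 (probe SD 0.04), and the choline carrier Slc44a1 at -0.62 (probe SD 0.01) and -1.14 (probe SD 0.44). Higher values were found for the equilibrative nucleoside carrier Slc29a1, at 0.35 (probe SD 0.28) and 1.14 (probe SD 0.10), and for Slc22a17, a receptor for lipocalin 2, at 0.43 (probe SD 0.54) and 1.56 (probe SD 0.91), on 2 probes each. The bile acid carrier of liver, Slc10a1, stood at 0.75 and 1.93 on 1 probe. The other measured members of Slc15, Slc22 and Slc44 lay between -1.23 and 0.96.

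The class of Slc6, Slc17, Slc18 and Slc32 holds carriers of neurotransmitters and of their vesicles, and others such as those of taurine and creatine. It had a median of -0.42 over 13 genes at 6 h and -0.42 over 16 at 12 h. None was past 2-fold on the high side on either array, where 6.2% of all genes were at 6 h and 14.5% at 12 h. On the low side there were 5 at 6 h, or 38.5% where all genes had 18.8%, and 4 at 12 h, or 25% where all genes had 20.5%. Those were Slc6a6, Slc6a14, Slc6a18, Slc18a1 and Slc32a1 at 6 h, and Slc6a6, Slc6a9, Slc6a20a and Slc18a1 at 12 h. Of the class, 10 of 13 genes at 6 h and 13 of 16 at 12 h had 1 probe. Their medians were -0.49 and -0.45, where all genes on 1 probe had -0.32 and -0.31. The creatine carrier Slc6a8 was an exception with several probes, at 0.63 (probe SD 0.41) and 0.57 (probe SD 0.66), all 3 above 0 on both arrays. The renal phosphate carrier Slc34a1 stood at -2.77 (probe SD 2.12) and -1.04 (probe SD 1.30), and Slc34a2 at -1.37 (probe SD 0.67) and -0.40 (probe SD 0.90). Beside them, 4 measured neural markers had a median of -0.82 at 6 h and -0.15 at 12 h, but they were split. Nefl stood at -1.49 and -0.59 and Snap25 at -1.77 and -0.64. Tubb3 stood at -0.15 and 0.29 and Syp at 0.07 and 0.37. The 3 measured kidney tubule markers had medians of -0.86 and -0.26. Of these 3, Slc34a1 is itself a carrier described here, Lrp2 stood at those medians and Aqp2 lay the other way, at 0.54 and 1.45. The 5 measured tenocyte markers had medians of 0.11 and -0.05. The part of these in the carrier values was not tested.

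The order of the carriers was largely shared by the arrays. Across the 156 carriers on both arrays Pearson's r was 0.68 and Spearman's rho 0.74, as a description across genes, against 0.66 and 0.74 over 10286 genes. The points share the arrays, the probes and any dye effect of a probe. Across the 64 carriers with several probes on both arrays r was 0.79, and across the 91 with 1 probe it was 0.67. Of the 156, 51 lay above 0 on both arrays, 81 below 0 on both, 13 above 0 at 6 h only and 11 above 0 at 12 h only. There were 18 at least 2-fold lower on both, where 9.8% of all genes were, and these included Slc6a6, Slc12a2, Slc16a13, Slc25a13, Slc38a2 and Slc39a10 with every probe below 0 on both arrays, and Slc34a1 likewise. The 12 h value exceeded the 6 h value in 97 of 156 carriers, with a median difference of 0.17, and in 5818 of 10286 genes, with a median difference of 0.12. One carrier, Slc12a7, was past 1.5-fold on opposite sides, where 1.32% of all genes were.

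**Figure D5:**
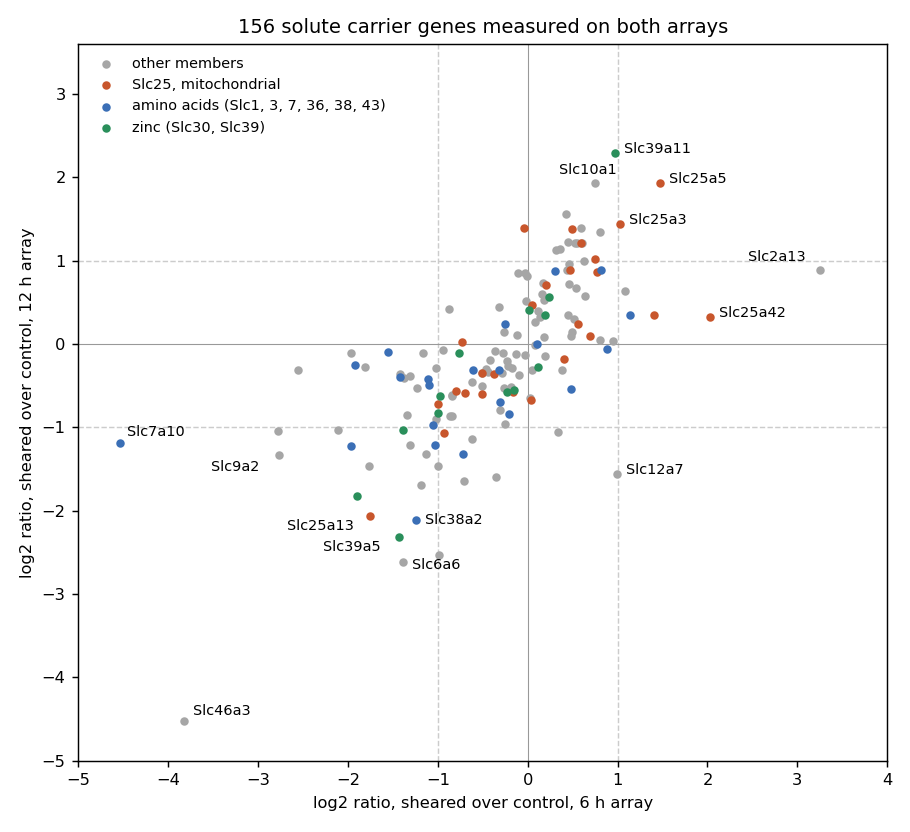
Log2 ratios of sheared over control at 6 h (x axis) and 12 h (y axis) for the 156 solute carriers measured on both arrays, coloured by class, with dashed lines at 2-fold. Slc25a5 and Slc25a3 lie past 2-fold higher on both arrays, Slc46a3 is low on both, and Slc12a7 is the one gene at 0.998 on the x axis and -1.56 on the y axis.

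Pumps that run on ATP were set beside the carriers. The ABC transporters had medians of -0.62 over 23 genes at 6 h and -0.38 over 24 at 12 h, but 0.24 and 0.11 over the 15 with several probes, against -0.02 and -0.06 for carriers with several probes. One was past 2-fold on the high side and 7 on the low side at 6 h, and 1 and 5 at 12 h, so that 4.35% and 30.4%, then 4.17% and 20.8%, stood against 6.2% and 18.8%, then 14.5% and 20.5%, of all genes. The P-type ATPases, which include the sodium and calcium pumps, had medians of -0.73 over 23 and -0.82 over 24, and -0.50 and -0.31 over the 13 with several probes. None was past 2-fold on the high side and 8 on the low side at 6 h, and 1 and 10 at 12 h, so that the low share was 34.8% and then 41.7%, where all genes had 18.8% and 20.5%. The subunits of the sodium pump whose gradient drives many carriers stood at 0.30 (probe SD 0.46) and 0.56 (probe SD 0.38) for Atp1b1, and at 0.46 (probe SD 0.69) and 1.02 (probe SD 0.83) for Atp1b3, on 8 probes each. These differences between groups of genes were not tested.

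Of 29 listed partners and regulators of carriers 21 were measured. The list was drawn up with earlier results of these data known. At 6 h 3 were past 2-fold on the high side and 4 on the low side, or 14.3% and 19.0%, where all genes had 6.2% and 18.8%. At 12 h 7 were on the high side and 4 on the low side, or 33.3% and 19.0%, where all genes had 14.5% and 20.5%. Timm10 and Timm22, which insert Slc25 carriers into the inner membrane, stood at 1.55 (probe SD 0.15) and 2.23 (probe SD 0.04), and at 0.51 (probe SD 0.49) and 1.61 (probe SD 0.98), on 2 and 4 probes. The outer membrane receptor Tomm20 stood at 1.02 (probe SD 0.29) and 1.37 (probe SD 1.10) on 7 probes, and the pyruvate carrier subunit Mpc1, which belongs to no Slc25 family, at 0.66 and 1.69 on 1.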

How the data were processed

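Gene expression was compared between sheared and control mouse tenocytes on 2 two-colour arrays, 1 at 6 h and 1 at 12 h. The authors deposited a log2 ratio per spot (base assumed) for 42624 spots, of which 39776 were measured at 6 h and 41717 at 12 h. Their normalization, background correction and spot filter are not given in the sources used here. Intensities were not used, so depth is unknown; precision is limited by having 2 arrays.

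Each array was centred on its median. Probes naming 1 symbol alone in GEO's platform annotation were used (21701 probes), and their median gave the gene's value. All 168 member gene IDs matched RefSeq's GRCm38.p6 table. For 7 members, spots of the same clone counted as probes. Counts used a 2-fold threshold. With 1 array per time point no test was run. Members and lists were chosen with earlier results of these data known. Substrate classes follow the SLC number, so a few members carry another substrate.

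Named genes were the whole of Slc3, Slc7, Slc25, Slc30, Slc38 and Slc39, the 10 highest and lowest of each array, the 8 highest and lowest with several probes on one side of 0, the 8 highest and lowest on both arrays, members past 1.5-fold on opposite sides, and the extremes of each family with 3 or more genes. The rest of the amino acid class was named to complete it. Other genes were named after their values were seen. A planned comparison with protein length was not made. Alternatives were no centring, the mean of probes, genes with 2 or more probes, keeping probes with several symbols, genes on both arrays only, one median absolute deviation for both arrays, print blocks of 900 spots centred, 1.5-fold and 3-fold thresholds, and Spearman's correlation. The gene summary was tested on simulated data. Python 3.11.15, numpy 2.4.6 and pandas 2.3.3 were used.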

Additional observations from a re-analysis of the deposited data

Results flagged for a closer look

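Slc12a7, a potassium-chloride cotransporter, differed in sign between the time points: it stood at 0.998 at 6 h and -1.56 at 12 h, a difference of -2.56 at 12 h relative to 6 h. The 6 h value rests on 1 probe, which read -2.15 at 12 h. Its other probe had no value at 6 h and read -0.96 at 12 h. The difference was not tested, since each time point has 1 array.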

How the results depend on the processing

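The carriers' medians stayed negative under every setting tried, between -0.53 without centring and -0.02 with several probes per gene at 6 h, and between -0.75 and -0.06 under the same settings at 12 h. Carriers at least 2-fold higher, 7 of 157 at 6 h and 17 of 165 at 12 h, were 4 and 4 without centring. Over genes with several probes they were 2 of 64 and 11 of 66. At 1.5-fold they were 23 and 35, or 14.6% and 21.2%, where 18.2% and 24.4% of all genes passed. At 3-fold they were 2 and 3, or 1.27% and 1.82%, where 1.3% and 5.74% of all genes passed. Carriers at least 2-fold lower, 36 and 31, were 57 at 12 h without centring. Over genes with several probes they were 14 of 64 and 13 of 66. At 1.5-fold they were 55 and 49, or 35.03% and 29.7%, where 31.3% and 33.1% of all genes passed. At 3-fold they were 13 and 13, or 8.28% and 7.88%, where 8.65% and 9.74% of all genes passed. The counts over several probes are smaller because fewer genes enter. As shares of carriers at least 2-fold higher, 2 of 64 is less than 7 of 157 at 6 h. At 12 h 11 of 66 is more than 17 of 165. The shift without centring follows from the medians subtracted. The shares of all genes were not counted in these 2 settings. Without centring the carriers still at least 2-fold higher were Slc2a13, Slc25a42, Slc25a5 and Slc25a32 at 6 h, and Slc39a11, Slc25a5, Slc10a1 and Slc22a17 at 12 h. The Slc16 median at 6 h turned to -1.005 over its 2 genes with several probes, and Slc11a2 at 6 h to 0.082 with probes of several symbols kept; the cause was not tested. Of 409 values of class and family medians, 47 changed sign, mostly medians near 0. Of 1224 values of named genes, 33 changed sign. No paired analysis was possible because each time point has 1 array.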
